A study of Mus musculus with 16 samples.

Results

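The genes described here make fatty acids from sugar in the liver, and their transcripts were followed in mice on chow, on a high-fat diet (HFD), and on HFD with NMN. NMN is nicotinamide mononucleotide, from which cells make NAD+. The 10 genes Srebf1, Mlxipl, Thrsp, Slc25a1, Acly, Acaca, Acacb, Fasn, Me1 and Pklr were chosen by name, and their probes were found by annotated symbol, updated through the Entrez identifier. Of the 10 genes, 9 had a named probe and 7 were measured, among 6559 measured genes in all. A gene counted as measured when its detection p-value, the chance of so bright a signal from negative control beads, was under 0.01 on at least 4 of the 16 arrays. Fasn passed that filter mostly through its NMN arrays, so counts and medians below are over the 6 genes detected on all 16 arrays, which are Mlxipl, Thrsp, Slc25a1, Acly, Acaca and Me1.

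All mice were female C57BL/6J, and total RNA came from whole frozen liver. Chip A held 4 chow mice and 4 HFD mice, neither given NMN, and chip B held 4 HFD arrays and 4 arrays of HFD mice given NMN intraperitoneally for 7 days. In the headers, the HFD arrays of both chips carry the same 4 animal numbers, so each HFD mouse was measured once on each chip and the 16 arrays stand for 12 mice. The sources used here give no age of the mice, make-up of the diets, vehicle injection or hour of liver collection. In bulk liver, fewer cells of a type and less RNA per cell cannot be told apart.

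As background, a liver fed carbohydrate turns glucose into pyruvate and then into mitochondrial citrate. Citrate is exported to the cytosol and split into acetyl-CoA, which is carboxylated to malonyl-CoA and built into palmitate with reducing power from NADPH. The pathway is known to be switched on by feeding, through insulin acting on the factor encoded by Srebf1 and through sugar acting on the factor encoded by Mlxipl, and to be low in fasting.

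Each array had 9473 to 10569 of 25697 probes detected, and the median correlation of an array with the others was 0.977 to 0.988. Precision was limited by 4 mice a group. Signals below are log2 values after background correction and quantile normalization, differences are log2 differences from limma fitted to all 6559 genes, and adjusted p-values are Benjamini-Hochberg values over those genes. Signals of different probes were not set against each other. The limma fit took the repeat arrays of an HFD mouse as independent. Its shared spread, behind every SE, interval and p-value, thus counts each HFD mouse on both chips.

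Promoters of all 10 genes were found in the RefSeq set for GRCm38.p6, as 15 entries, and 250 bases before the annotated start were searched on both strands for 4 motifs. The E-box CACGTG, the letters bound by factors such as upstream stimulatory factor, was in 2 of the 15 entries and in 6.02% of 32851 mouse promoters of that length. The CCAAT box CCAAT was in 9 entries and in 33.8% of all, and the GC box GGGCGG was in 6 entries and in 32.7% of all. The sterol element TCACNCCAC was in 1 entry, of Mlxipl, and in 1.05% of all. The 4 promoters printed belong to Acly and Acaca, the pair that varied most alike over the arrays, and to Thrsp and Slc25a1, each of which was most like the other, and capitals mark the motifs. The Thrsp window is chr7:97417551-97417800 (minus strand), that of Slc25a1 chr16:17928220-17928469 (minus strand), that of Acly chr11:100528001-100528250 (minus strand) and that of Acaca chr11:84195188-84195437 (plus strand).
Thrsp: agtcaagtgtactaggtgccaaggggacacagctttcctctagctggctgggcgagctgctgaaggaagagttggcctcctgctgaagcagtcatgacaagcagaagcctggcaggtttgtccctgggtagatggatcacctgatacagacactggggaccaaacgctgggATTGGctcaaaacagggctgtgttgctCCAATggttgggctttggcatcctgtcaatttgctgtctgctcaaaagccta
Slc25a1: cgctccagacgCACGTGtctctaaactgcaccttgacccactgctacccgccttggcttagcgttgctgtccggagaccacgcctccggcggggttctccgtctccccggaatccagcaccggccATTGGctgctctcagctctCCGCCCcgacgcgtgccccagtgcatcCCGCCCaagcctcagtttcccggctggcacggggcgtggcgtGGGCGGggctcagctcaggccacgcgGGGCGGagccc
Acly: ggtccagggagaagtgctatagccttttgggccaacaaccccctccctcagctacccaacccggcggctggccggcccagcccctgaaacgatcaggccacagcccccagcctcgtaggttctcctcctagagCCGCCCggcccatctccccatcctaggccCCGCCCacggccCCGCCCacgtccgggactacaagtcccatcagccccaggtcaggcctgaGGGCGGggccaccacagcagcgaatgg
Acaca: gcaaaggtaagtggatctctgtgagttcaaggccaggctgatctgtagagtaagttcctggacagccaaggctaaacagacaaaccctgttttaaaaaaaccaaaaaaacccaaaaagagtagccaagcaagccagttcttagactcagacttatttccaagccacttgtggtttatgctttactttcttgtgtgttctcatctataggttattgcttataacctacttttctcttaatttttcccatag
The Thrsp window held 2 CCAAT boxes, the first of them on the other strand. The Slc25a1 window held 1 E-box, 1 CCAAT box and 4 GC boxes, and the Acly window held 4 GC boxes. None of these letters was found in the Acaca window, the only entry of this gene in the set, and any other start of Acaca was not searched. Overlaps between motifs were looked for, and none occurred in these windows.

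Srebf1, Pklr and Acacb could not be followed. The probe of Srebf1, the insulin-responsive factor, had a deposited intensity of 29.2 to 38.6 over the 16 arrays, and its lowest detection p was 0.568. The probe of Pklr, the liver pyruvate kinase of the last step of glycolysis, had an intensity of 30.3 to 39.5 with a lowest detection p of 0.185. Both were detected on 0 arrays, and Acacb, the carboxylase isoform at the mitochondrial surface, had no probe, so these genes have no value here. A dim probe bounds its own signal and not the amount of transcript.

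Fasn, which encodes the fatty acid synthase that builds palmitate, was detected on 4 arrays only, at deposited intensities of 34.6 to 62.0 over all arrays. The arrays that detected it were 1 HFD array of chip B and 3 NMN arrays, with 0 among chow mice and 0 among the chip A HFD arrays. Its signals were 4.69, 4.48, 4.29 and 4.27 in chow mice, 4.22, 4.76, 4.52 and 4.73 on the chip B HFD arrays, and 4.70, 4.71, 5.23 and 5.09 in NMN mice. The NMN mice were above all chow mice, which lay on the other chip, and they overlapped the HFD arrays. The measured means were 4.93 in NMN mice and 4.43 in chow mice. With the undetected chow signals set at a bound of 4.74, the NMN mean was 1.14-fold above that bound. This sets chip B signals directly beside chip A signals, with no allowance for the chip, and is not a firm minimum. The limma difference from chow, taken through the HFD mice, was 1.37-fold, with an interval of 1.01 to 1.85 and an adjusted p of 0.263. The fitted NMN difference from HFD, with only 1 of the 4 HFD arrays and 3 of the 4 NMN arrays detected, was 0.38 (SE 0.14, adjusted p = 0.394 by limma). It is mostly a difference from signals near background. No diet fold is given, because both groups lay below background.

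With HFD against chow, none of the 6 genes passed the test, beside 6.89% of all 6559 genes (452 genes). An unadjusted p under 0.05 was found for 0 of the 6 and for 25.3% of all genes. Of the 6 genes, 3 had a mean above chow and 3 below it, with a median difference of -0.041 beside -0.011 over all genes. For none of the 6 were the HFD mice all above or all below the chow mice, which held for 15.3% of all genes. What the diet comparison showed was a wide spread among the HFD mice, with HFD mouse 1 far below the other 3 in most of these genes. That mouse decides the direction of several means, and the differences below are given with and without it.

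Mlxipl encodes the carbohydrate response element-binding protein, the sugar-sensing factor of the programme. Its signals were 9.65, 10.15, 10.17 and 9.87 in chow mice and 9.72, 9.94, 10.29 and 10.20 in HFD mice on chip A. The groups overlapped almost wholly, and HFD mouse 1 was within the chow range. The difference was 0.076 (SE 0.17, 95% interval -0.28 to 0.43, adjusted p = 0.816 by limma), and 0.18 without HFD mouse 1.

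Thrsp encodes a small nuclear protein that responds to thyroid hormone and carbohydrate and promotes lipid synthesis. Its signals were 10.26, 9.31, 9.10 and 9.84 in chow mice and 6.69, 9.81, 10.37 and 10.57 in HFD mice on chip A. HFD mouse 1 was far under every chow mouse, at 8.65-fold below the next HFD mouse, while HFD mice 3 and 4 were above every chow mouse. The mean difference of -0.26 (SE 0.85, 95% interval -2.06 to 1.54, adjusted p = 0.881 by limma) turned to 0.63 (adjusted p = 0.281 by limma) without HFD mouse 1.

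Slc25a1 encodes the carrier that exports citrate from mitochondria, and its signals were 6.99, 6.84, 6.95 and 6.97 in chow mice. On chip A the HFD mice had 6.17, 6.68, 6.72 and 6.95. Chow mice lay close together, and 3 of the 4 HFD mice were under all of them. The difference was -0.31 (SE 0.16, 95% interval -0.66 to 0.042, adjusted p = 0.258 by limma), and -0.15 without HFD mouse 1.

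Acly encodes the lyase that splits cytosolic citrate into acetyl-CoA. Its signals were 11.48, 11.45, 11.39 and 10.95 in chow mice and 9.36, 12.04, 12.06 and 11.17 in HFD mice on chip A. HFD mice 2 and 3 were above every chow mouse and HFD mouse 1 was under every chow mouse, 3.52-fold below the next HFD mouse. The mean difference of -0.16 (SE 0.62, 95% interval -1.47 to 1.16, adjusted p = 0.902 by limma) turned to 0.44 (adjusted p = 0.525 by limma) without HFD mouse 1.

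Acaca encodes the cytosolic acetyl-CoA carboxylase that makes malonyl-CoA, the committed step. Its signals were 9.84, 9.47, 9.51 and 9.35 in chow mice and 8.53, 10.70, 10.30 and 9.87 in HFD mice on chip A. The other 3 HFD mice were above all chow mice, and HFD mouse 1 was under them. The difference was 0.31 (SE 0.46, 95% interval -0.67 to 1.28, adjusted p = 0.721 by limma). Without HFD mouse 1 it was 0.74 (SE 0.27), with an unadjusted p of 0.0169 and an adjusted p of 0.123 by limma.

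Me1 encodes cytosolic malic enzyme, which yields NADPH for the synthase. Its signals were 7.83, 7.60, 7.23 and 7.68 in chow mice and 7.005, 8.72, 8.47 and 7.91 in HFD mice on chip A, again with 3 HFD mice above all chow mice and HFD mouse 1 below them. The difference was 0.44 (SE 0.39, 95% interval -0.39 to 1.27, adjusted p = 0.515 by limma), and without HFD mouse 1 it was 0.78 (SE 0.29), with an unadjusted p of 0.0182 and an adjusted p of 0.127 by limma.

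Without HFD mouse 1, 5 of the 6 genes had a mean above chow, with a median difference of 0.53, and none passed the adjusted threshold, beside 4.62% of all genes (303 genes). An unadjusted p under 0.05 was then found for 2 of the 6 genes, Acaca and Me1, and for 23.7% of all genes. Without HFD mice 2 and 3 instead, the differences of Acaca and Me1 were -0.34 (adjusted p = 0.737 by limma) and -0.13 (adjusted p = 0.900 by limma). That setting leaves the low HFD mouse 1 with HFD mouse 4 alone. On chip A, HFD mouse 4 was above every chow mouse for both genes.

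**Figure D1:**
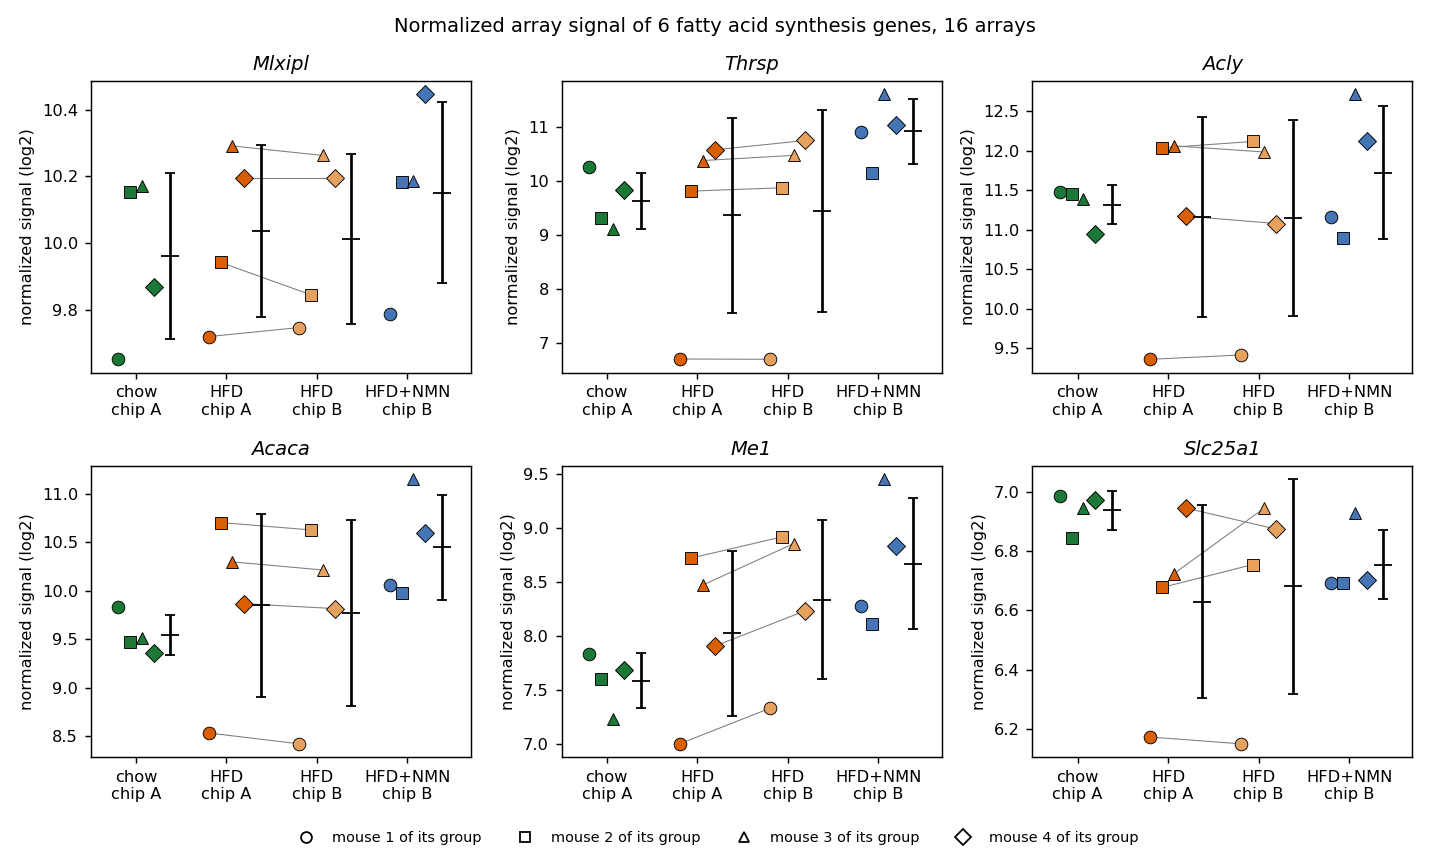
Normalized log2 signal (y axes, each with its own range) of the 6 genes detected on all arrays, by group and chip (x axis). Points are arrays, marker shapes are mouse numbers within a group, grey lines join the repeat arrays of an HFD mouse, and black bars are the mean ± SD of 4 arrays. HFD mouse 1 (circle) lies at 6.69 for Thrsp and 9.36 for Acly on chip A, under every chow mouse, and Mlxipl shows no such gap.

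HFD mouse 1 was low on its chip B array too. Thrsp read 6.69, 9.87, 10.47 and 10.75 on chip B, within 0.17 of chip A in each mouse. The SD between the arrays of a mouse was 0.053 for Thrsp, beside an SD of 1.81 between HFD mice. HFD mouse 1 was 9.06-fold below the next HFD mouse for Thrsp on chip B, 3.17-fold for Acly and 2.63-fold for Acaca. The low values of this mouse were thus present on both arrays made from it. Me1 read 0.19 to 0.38 higher on chip B in all 4 mice, and its chip difference of 0.31 did not pass the test, which 0.0457% of all genes passed (3 genes). That test takes the arrays of a mouse as independent and so could hardly pass. Its SE of 0.39 for Me1 holds the spread between mice, beside an SD of 0.056 between the arrays of a mouse. With mouse as a random block 319 genes passed, and Me1 passed under no setting run.

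Both arrays of HFD mouse 1 were the lowest of the 16 arrays for 4 of the 6 genes, Thrsp, Slc25a1, Acly and Acaca, beside 4.89% of all genes. These arrays had 9948 and 9952 probes detected and a median correlation with the other arrays of 0.983 and 0.982. The array weights that limma estimates were lowest for them among the 16, at 0.652 and 0.616, and the part of RNA quality in their values was not tested. They stood apart from their group for 2.29% and 1.92% of genes by Dixon's ratio, beside 0.518% to 1.71% for the other arrays.

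After NMN, none of the 6 genes passed the test against HFD, as for all 6559 genes, of which 0% passed by limma, while 9.8% had an unadjusted p under 0.05 and 0 of the 6 did. All 6 means were above HFD, with a median difference of 0.46 beside -0.00331 over all genes, of which 49% were higher. Without HFD mouse 1, 4 of the 6 were higher and the median was 0.026. For none of the 6 did the NMN and chip B HFD arrays keep apart, which 4.89% of all genes did. The diet and NMN comparisons share the HFD mice, so a low HFD mouse lowers the first and raises the second.

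Among the regulators, Mlxipl read 9.79, 10.18, 10.19 and 10.45 in NMN mice and 9.75, 9.84, 10.26 and 10.20 on the chip B HFD arrays, a difference of 0.14 (SE 0.17, 95% interval -0.22 to 0.49, adjusted p = 0.883 by limma), and 0.049 without HFD mouse 1. Thrsp read 10.89, 10.14, 11.60 and 11.03 in NMN mice, so that 3 of 4 NMN mice were above every HFD array. The Thrsp difference was 1.47 (SE 0.85, 95% interval -0.32 to 3.27, adjusted p = 0.619 by limma). Without HFD mouse 1 it was 0.56 (SE 0.34, adjusted p = 0.655 by limma).

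Among the enzymes, Acly read 11.16, 10.90, 12.72 and 12.12 in NMN mice and 9.41, 12.12, 11.98 and 11.08 on the chip B HFD arrays. NMN mouse 3 was the highest of all arrays and NMN mice 1 and 2 lay inside the HFD range. The Acly difference was 0.57 (SE 0.62, 95% interval -0.74 to 1.89, adjusted p = 0.853 by limma), and it was -0.00396 without HFD mouse 1.

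Acaca read 10.06, 9.98, 11.15 and 10.59 in NMN mice and 8.42, 10.63, 10.21 and 9.82 on the chip B HFD arrays. Only NMN mouse 3 was above every HFD array. The difference was 0.68 (SE 0.46, 95% interval -0.30 to 1.65, adjusted p = 0.703 by limma), and 0.23 without HFD mouse 1.

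Me1 read 8.28, 8.11, 9.45 and 8.83 in NMN mice and 7.33, 8.91, 8.85 and 8.23 on the chip B HFD arrays, with NMN mouse 3 alone above them. The difference was 0.34 (SE 0.39, 95% interval -0.49 to 1.16, adjusted p = 0.875 by limma), and 0.00209 without HFD mouse 1. Slc25a1 read 6.69, 6.69, 6.93 and 6.70 in NMN mice and 6.15, 6.75, 6.95 and 6.87 on the chip B HFD arrays. All NMN mice lay inside the HFD range, and the difference was 0.073 (SE 0.16, 95% interval -0.28 to 0.42, adjusted p = 0.950 by limma), and -0.10 without HFD mouse 1.

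NMN mouse 3 was the highest of the 16 arrays for 4 of the 6 genes, Thrsp, Acly, Acaca and Me1, beside 670 of all 6559 genes. Its deposited intensity for Thrsp was 3016.2, and that of HFD mouse 1 was 116.3 on chip A and 121.9 on chip B.

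**Figure D2:**
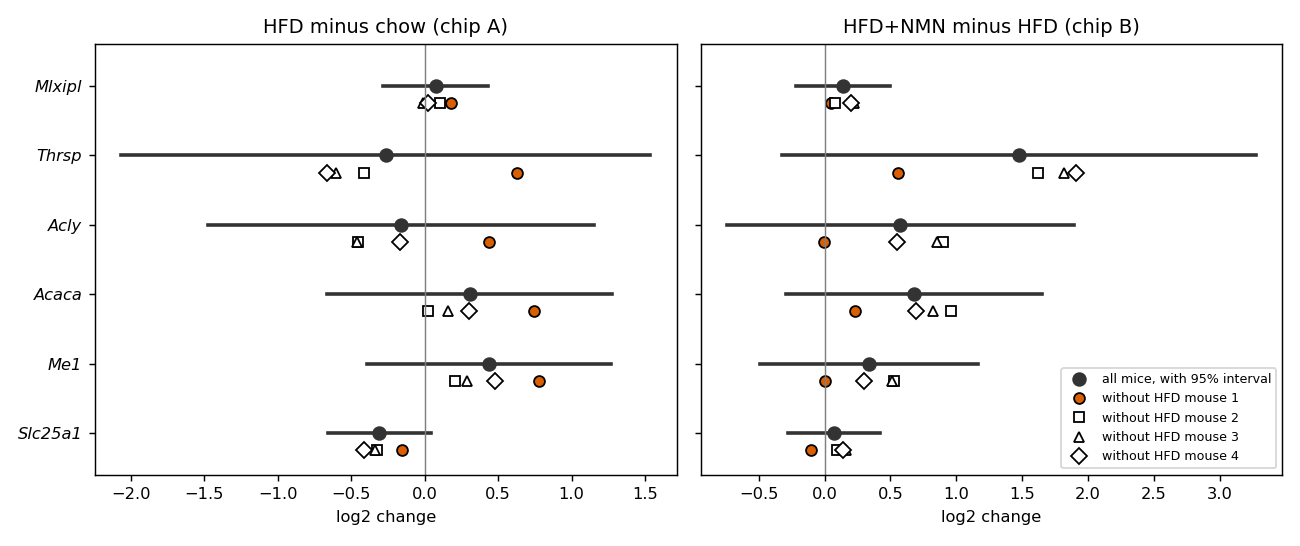
Log2 difference (x axis) of each of the 6 genes detected on all arrays (y axis) for HFD minus chow and for NMN minus HFD, with 95% intervals from limma over all mice and the values without each HFD mouse. The intervals of these 6 genes over all mice include 0, and the NMN difference of Thrsp shrinks from 1.47 to 0.56 without that mouse.

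Chow and NMN mice lay on different chips and were compared through the HFD mice on both. None of the 6 genes passed that test, beside 1.59% of all genes (104 genes), and 0 of the 6 had an unadjusted p under 0.05, beside 17.6% of all genes. The differences were 1.21 for Thrsp (SE 1.20, adjusted p = 0.643 by limma), 0.98 for Acaca (SE 0.65, adjusted p = 0.463 by limma) and 0.77 for Me1 (SE 0.55, adjusted p = 0.505 by limma). Mlxipl and Acly differed by 0.21 and 0.42, and Slc25a1 by -0.23. The same HFD mice enter this comparison on both chips, and the main fit takes their arrays as independent. Its SEs thus add the spread between HFD mice and may overstate the error. With mouse as a random block 745 genes passed, and still none of the 6. When HFD mouse 1 was left out the differences were 0.23 for Mlxipl, 1.18 for Thrsp, 0.44 for Acly, 0.97 for Acaca, 0.78 for Me1 and -0.26 for Slc25a1, and none passed the adjusted threshold. An unadjusted p under 0.05 by limma was then found for 2 of the 6, Thrsp at 0.0270 (SE 0.48, adjusted p = 0.247) and Acaca at 0.0254 (SE 0.39, adjusted p = 0.242). For 2 of the 6 genes, Acaca and Me1, all NMN mice were above all chow mice, which held for 10% of all genes. Groups kept apart in either direction for 20.6%. These counts set chip A signals directly beside chip B signals, with no allowance for the chip. For Me1 the lowest NMN mouse read 8.11 and the highest chow mouse 7.83. The HFD mice read 0.19 to 0.38 higher for Me1 on chip B, and the part of the chip in the Me1 gap was not tested.

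The genes also differed in how widely they spread within a group. Over the chip A HFD mice the SD of Thrsp was 1.81, rank 6 of 6559 genes, that of Acly 1.27, rank 16, that of Acaca 0.94, rank 36, and that of Me1 0.76, rank 79. Among chow mice the SDs of these genes were 0.52, 0.25, 0.21 and 0.26, at ranks 87, 906, 1451 and 812. Over HFD mice 2, 3 and 4 alone, the SDs were 0.40 for Thrsp, 0.51 for Acly, 0.42 for Acaca and 0.42 for Me1, at ranks 357, 207, 316 and 318. The top ranks of the HFD mice thus rested on HFD mouse 1. Slc25a1 was at percentile 89.8 in the HFD mice and at percentile 11 in chow mice, and Mlxipl was at percentile 83.1 and 86.4. Leaving out HFD mouse 1, the HFD percentiles were 57.3 for Slc25a1 and 70.9 for Mlxipl.

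Once each value was set against its group mean, the enzymes varied together over the 16 arrays of 12 mice. Acly correlated with Acaca at r = 0.979 and with Me1 at 0.956, and Acaca with Me1 at 0.961. These stayed at 0.928, 0.897 and 0.922 over the 14 arrays without HFD mouse 1. Thrsp correlated with Slc25a1 at 0.959, and at 0.705 without that mouse. Thrsp with Acly and Acaca went from 0.827 and 0.838 to 0.209 and 0.182, and were thus far lower without HFD mouse 1. Mlxipl was the least alike, at 0.333 to 0.540 with the others and at -0.148 to 0.163 without the mouse. The median over the 21 pairs of the 7 measured genes was 0.744, and 0.209 without the mouse, beside 0.00193 over all gene pairs. These correlations are a description, since arrays share mice and chips.

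**Figure D3:**
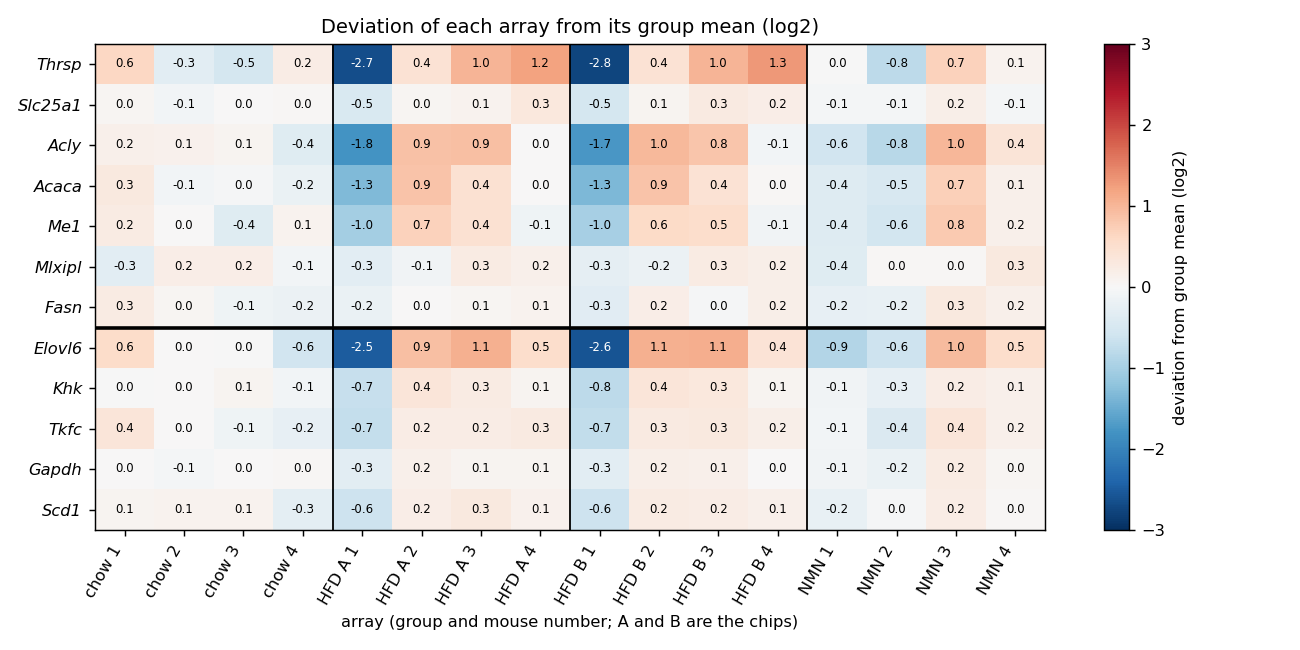
Deviation of each array from its group mean in log2 units (colour and printed value) for the measured genes and the genes most alike to their mean (rows) over the 16 arrays (columns). HFD mouse 1 lies furthest below its group for Thrsp, Acly, Acaca and Elovl6 on both chips, and NMN mouse 3 is high for Thrsp, Acly, Acaca and Me1.

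Other genes were set against the mean of the 7 measured genes, Fasn included, each scaled by its SD. Outside the 10 genes, those most alike to that mean over the 16 arrays were Elovl6 at r = 0.988, Khk at 0.957, Tkfc at 0.952, Gapdh at 0.946 and Scd1 at 0.943. Without HFD mouse 1 the values were 0.910, 0.732, 0.859, 0.864 and 0.644. Elovl6 lengthens palmitate and Scd1 desaturates its products, Khk and Tkfc act in fructose breakdown, and Gapdh is a glycolytic enzyme. Elovl6 read 9.28, 8.74, 8.72 and 8.15 in chow mice, 6.62, 10.02, 10.17 and 9.63 in HFD mice on chip A, and 9.37, 9.62, 11.19 and 10.77 in NMN mice. HFD mouse 1 was again far below, and the other 3 HFD mice were above all chow mice. Fasn was most alike to Ttc23 at 0.888, Tkfc at 0.858, Gstm2 at 0.850, Gpam at 0.839 and Pik3cb at 0.819, with Fasn itself near background.

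On chip A the 6 neutrophil markers summed to deposited intensities of 389.0, 1955.5, 1672.9 and 251.0 in HFD mouse 1, 2, 3 and 4. Chow mice had 221 to 316. On chip B the sums were 409.2, 1975.5, 1708.4 and 276.2 in the same HFD mice and 318 to 493 in NMN mice. HFD mice 2 and 3, which had the highest Acly, Acaca and Me1 among HFD mice, thus had the highest neutrophil markers, and HFD mice 1 and 4 were both low. NMN mouse 3, the highest for those genes, had 334.4. The 5 macrophage markers with a probe, 4 of them measured, summed to 1492, 2852, 2594 and 1388 in HFD mouse 1, 2, 3 and 4 on chip A, with HFD mice 2 and 3 again the highest, beside 693 to 1196 in chow mice. On chip B the HFD arrays had 1423 to 2991 and NMN mice 1367 to 4075, with 2684 in NMN mouse 3. The 8 hepatocyte markers, 7 of them measured, summed to 71861 to 77234 in chow mice and 60266 to 68324 in chip A HFD mice. On chip B they summed to 55767 to 63370 on the HFD arrays and 49685 to 62337 in NMN mice, the lowest being NMN mouse 3. The 6 B and T cell markers, 3 of them measured, summed to 212 to 278 in chow mice. HFD arrays had 215 to 281 on chip A and 247 to 298 on chip B. NMN mouse 3 had 433.8 and the other NMN mice 257 to 280, so that it was the highest array for this list too. The 6 stellate cell and fibroblast markers, 4 of them measured, summed to 483 to 624 in chow mice and 622 to 908 in chip A HFD mice. On chip B their sums were 694 to 952 on the HFD arrays and 790 to 1023 in NMN mice. The 5 endothelial markers, 4 of them measured, summed to 302 to 393 in chow mice and 439 to 551 in chip A HFD mice. Their chip B sums were 460 to 558 on the HFD arrays and 440 to 528 in NMN mice. The 3 cholangiocyte markers with a probe were not measured, yet their sums in HFD mice were 108 to 113 on chip A and 111 to 130 on chip B. The rise was in HFD mice 1, 3 and 4, while HFD mouse 2 had 110.5 on chip A and 111.4 on chip B. Sums of deposited intensities can thus differ between the arrays of a mouse, and NMN mice are to be read against the chip B HFD arrays. The 5 adipocyte markers with a probe, Adipoq, Retn, Lep, Plin1 and Slc2a4, were detected on 0 arrays. The part of these cells in the values of the 6 genes was not tested.

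The genes around fatty acid synthesis were read from 9 lists. Among 12 measured regulators of lipogenic transcription, 1 rose with HFD and 1 fell, beside 3.16% of all genes that rose and 3.74% that fell. Insig2, which holds the SREBP precursors in the endoplasmic reticulum, rose by 1.45 (SE 0.18, adjusted p = 0.0011 by limma), and its difference was 1.42 without HFD mouse 1 (adjusted p = 0.00355 by limma) and 1.37 without HFD mice 2 and 3 (adjusted p = 0.0204 by limma). Rxra, the shared partner of nuclear receptors, fell by 0.48 (SE 0.14, adjusted p = 0.0494 by limma), and passed in 1 of the 8 settings with a chow or HFD mouse left out (adjusted p from 0.0269 to 0.155). The median over the list was -0.26 with HFD and -0.12 with NMN.

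The lists that feed the pathway held 1 call in all with HFD. None of 8 measured genes of hexose uptake and glycolysis passed, the smallest p being that of Gckr, the glucokinase regulator (-0.26, adjusted p = 0.297 by limma). Among 10 genes of pyruvate, acetyl-CoA and citrate supply, Aco1, the cytosolic aconitase, fell by 0.57 (SE 0.15, adjusted p = 0.0331 by limma), and passed in 3 of the 8 settings with a mouse left out, the call being lost when HFD mouse 1, 2 or 3 or chow mouse 1 or 4 was left out (highest adjusted p 0.103). None of 6 further NADPH genes passed, Mthfd1 of folate metabolism having the smallest p (-0.46, adjusted p = 0.0618 by limma).

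Among the genes that use palmitate, 1 of 12 desaturation and elongation genes rose with HFD, Elovl5, which lengthens polyunsaturated fatty acids, by 0.84 (SE 0.18, adjusted p = 0.0145 by limma). Without HFD mouse 1, 3 of the 12 rose, Scd1, Fads2 and Elovl5, and without HFD mice 2 and 3 none passed. Elovl5 alone had an adjusted p of 0.0532 without HFD mouse 3. Of 9 triglyceride synthesis genes, Mogat1, a monoacylglycerol acyltransferase, was detected on 0 chow arrays and on all 12 others, and so passed the filter through the groups where it was brighter. It was at least 1.28-fold higher with HFD, with measured means of 5.10 and 4.35 (adjusted p = 0.0157 by limma). Dgat2, which adds the last acyl chain, fell by 0.49 (SE 0.11, adjusted p = 0.0194 by limma), the call being lost when HFD mouse 1, 2 or 3 or chow mouse 1 was left out (highest adjusted p 0.0631).

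Of 7 measured carbohydrate-response targets, Fgf21, a liver hormone of the fasted and sugar-fed states, rose by 1.66 (SE 0.38, adjusted p = 0.0188 by limma), the call being lost when HFD mouse 2 or chow mouse 4 was left out (highest adjusted p 0.0544). None of 5 LXR targets passed, Abcg5 of sterol export having the smallest p (0.91, adjusted p = 0.0793 by limma).

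Cholesterol synthesis, driven by the sister factor encoded by Srebf2, was the list with the most calls. Of 13 measured genes, 10 fell with HFD and none rose, with a median of -1.24 beside -0.011 over all genes. Hsd17b7 fell by 1.04 (SE 0.13, adjusted p = 0.0011 by limma), Srebf2 fell by 0.64, Msmo1 fell by 2.27 and Cyp51 fell by 2.28, and all but Srebf2 are enzymes that act after squalene. The count was 10 without HFD mouse 1 and 12 without HFD mice 2 and 3, and it was 6 when HFD mouse 4 or chow mouse 1 or 2 was left out. The 4 genes named passed in all 8 settings with a mouse left out. Averaged over its genes, the list lay -2.19, -0.83, -1.01 and -1.53 from chow in HFD mouse 1, 2, 3 and 4 on chip A. Every HFD mouse was below chow here, unlike the mean of the 6 fatty acid synthesis genes, which was -1.25, 0.49, 0.54 and 0.28 in the same mice. HFD mouse 1 was the lowest in both. No difference between the lists was tested.

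No member of the 9 lists passed in NMN against HFD, as no gene did. Against chow across chips, 3 of the 12 regulators passed in NMN mice, 1 higher and 2 lower, beside 0.625% and 0.961% of all genes. The regulators were Insig2 at 1.17 (adjusted p = 0.0383 by limma), Irs2, the insulin receptor substrate, at -1.08 (adjusted p = 0.0383 by limma) and Scap, the SREBP escort, at -0.62 (adjusted p = 0.0487 by limma). Over the 12 settings with a mouse left out, Insig2 passed in 5, Irs2 in 3 and Scap in 2, and no gene of all 6559 passed when HFD mouse 3 was the mouse left out. In the cholesterol list 3 of 13 genes fell in that comparison, and 0 without HFD mouse 3.

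**Figure D4:**
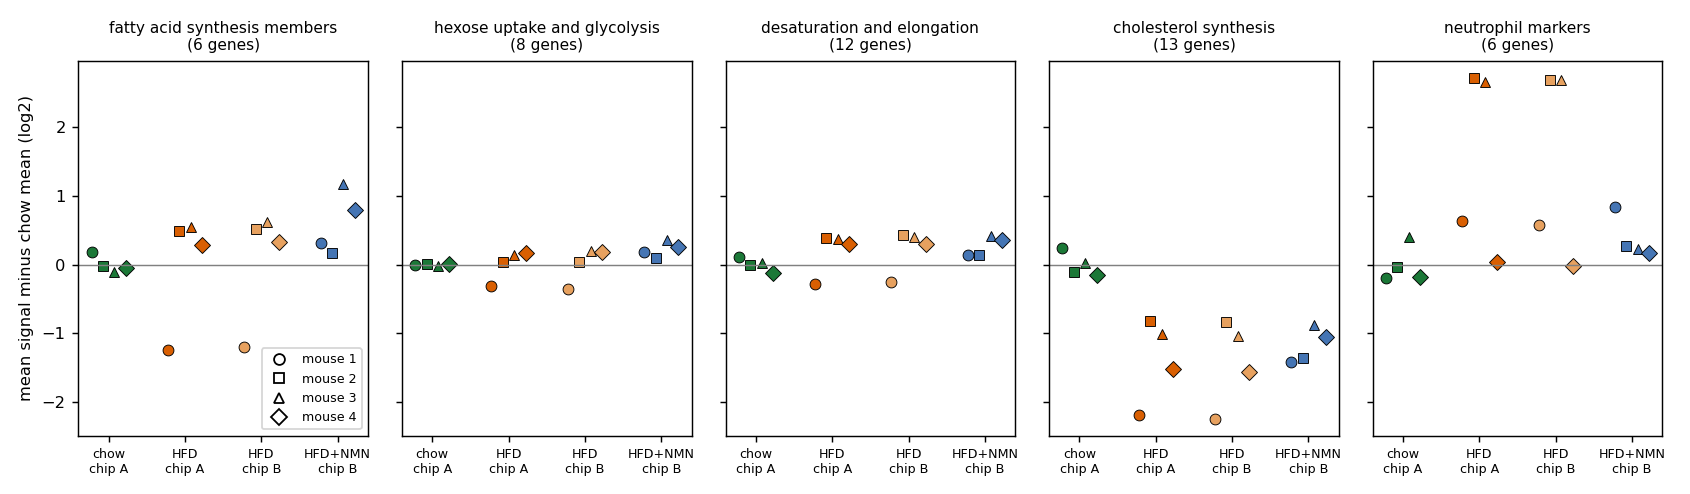
Mean log2 signal over chow (y axis) of the 6 fatty acid synthesis genes and of the glycolysis, desaturation, cholesterol and neutrophil lists, by array in each group (x axis), with points as arrays and marker shapes as mouse numbers. The cholesterol list lies below 0 in all HFD and NMN arrays, while the fatty acid synthesis genes lie below 0 only in HFD mouse 1 among them, at -1.25 on chip A.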

How the data were processed

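Total liver RNA was labelled with biotin for 1-colour Illumina bead arrays, per the labels' protocols. The deposited signal table holds a linear intensity for 25697 probes on each array, scaled by the authors to the same mean of 202 with no background subtracted, as the values show. Per the file headers, each intensity has a detection p-value. A second deposited table holds the authors' z score, used as an alternative. No per-sample column of other samples was present.

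Background correction and quantile normalization used neqc (limma 3.58.1, R 4.3.3, offset 16), keeping 10550 probes with detection p under 0.01 on at least 4 arrays. The brightest probe stood for a gene. The 4 group means were fitted with lmFit and eBayes to 16 arrays, with a Benjamini-Hochberg threshold of 0.05 over 6559 genes. Arrays of the same HFD mouse deviated together (r from 0.765 to 0.892). The main fit took them as independent in every comparison, so mouse as a block was an alternative.

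The genes and lists were chosen with earlier results of these data known. From each list the genes that passed were named, up to 4 by smallest p, or else the smallest p. The test was checked on simulated data.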

Additional observations from a re-analysis of the deposited data

Results flagged for a closer look

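In 2 of 28 gene and group combinations (7.14%), an array stood apart from the other 3 of its group by Dixon's ratio, where chance gives about 1 in 20. Acly in chow mouse 4 was 10.95 beside 11.39 for the next chow mouse, a ratio of 0.843. Slc25a1 in NMN mouse 3 was 6.93 beside 6.70 for the next NMN mouse, a ratio of 0.949. Thrsp in HFD mouse 1 had a ratio of 0.803 on chip A and 0.784 on chip B, under the critical value.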

How the results depend on the processing

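No member passed in any contrast under any setting run. The count of all genes called for HFD minus chow, 452, was 259 with no detection filter, 780 with array weights, 99 without HFD mice 2 and 3, an alternative added after the data were seen, and 175 to 564 with a mouse left out, with 175 without HFD mouse 3, 208 without chow mouse 4, 209 without chow mouse 1, 217 without HFD mouse 2 and 288 without chow mouse 2. For NMN minus HFD, 0, it was 1 without HFD mice 2 and 3 and 0 to 4 with a mouse left out, with 4 without HFD mouse 1 and 3 without NMN mouse 4. For NMN minus chow, 104, it was 61 with z scores, 13 with no filter, 197 with array weights, 745 with mouse as a random block, 326 with the replicate block and 0 to 265 with a mouse left out, with 0 without HFD mouse 3 and 265 without NMN mouse 4. For chip B minus chip A, 3, it was 319 with mouse as a random block, 10 with the replicate block and 0 to 1 with a mouse left out.

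Of the log2 differences of members, 455 kept their direction and 17 turned. HFD minus chow turned for Mlxipl to -0.020 with median centring and -0.00328 without HFD mice 2 and 3, for Thrsp to 0.17 and Acly to 0.19 with array weights, and for Acaca to -0.34 and Me1 to -0.13 without HFD mice 2 and 3. NMN minus HFD turned for Slc25a1 to -0.040 with array weights, and chip B minus chip A for Slc25a1 to -0.00422 in z scores. With a mouse left out, HFD minus chow ranged from -0.027 (without chow mouse 1) to 0.18 for Mlxipl, also below 0 at -0.00856 without HFD mouse 3, from -0.67 to 0.63 for Thrsp and from -0.46 to 0.44 for Acly, both positive only without HFD mouse 1. NMN minus HFD ranged from -0.00396 to 0.90 for Acly and from -0.10 to 0.16 for Slc25a1, both negative only without HFD mouse 1. Chip B minus chip A ranged from -0.039 to 0.020 for Acly, from -0.014 to 0.098 for Fasn and from -0.00564 to 0.092 for Slc25a1. Where a mouse was left out, fewer samples were fitted, and otherwise the cause was not tested.

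Arrays of the same replicate number correlated weakly between chow and HFD (r from -0.00700 to 0.237, 5 of 8 arrays best with their own number). Between HFD and NMN r was from -0.275 to 0.328, with 2 of 8. The main fit used no pairing by number, and these values do not settle whether chow and HFD numbers pair. The replicate block gave 480 calls for HFD minus chow and 0 for NMN minus HFD. A fit within a chip could not be made for NMN minus chow or between chips, and Fasn has no value with detection on at least 8 arrays. Signal over background limits Fasn, Srebf1 and Pklr.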
